A study of Mus musculus with 4 samples.

Results

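Sulfation joins a sulfate group to small molecules, steroids, proteins and sugars. Sulfate enters cells through transporters such as Slc26a2, the bifunctional PAPS synthases Papss1 and Papss2 turn it into the activated donor 3'-phosphoadenosine 5'-phosphosulfate (PAPS), and sulfotransferases move the group from PAPS to an acceptor. In the gut epithelium the cytosolic sulfotransferases (Sult) conjugate dietary phenols, drugs, hormones and sterols, while Golgi sulfotransferases act on mucins, proteoglycans and glycolipids.

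The genes described here are 8 named members of that pathway, Slc26a2, Papss1, Papss2, Sult1a1, Sult1b1, Sult1c2, Sult1d1 and Sult2b1, out of 51508 genes in the table, 26144 of them with at least 1 count. They were picked by symbol with the contrast of SGC-CBP30 against vehicle already known, so their differences between the groups are a description and carry no test. RNA was sequenced from intestinal organoids, epithelial cultures that organise themselves in matrix, made from 8 to 12 week old C57BL/6 mice of wild type. All libraries, controls included, came from organoids that had received 8 Gy and were harvested 36 hours later; 2 were given vehicle and 2 SGC-CBP30, a small molecule that binds the acetyl-lysine reading bromodomains of CBP and p300. The labels name neither the dose of the compound nor the vehicle, and there is no unirradiated group among the libraries. SGC-CBP30 replicate 2 is called sgc2 in its title but SGC-CBP31 in its treatment label. Nothing in the labels says that replicates are separate cultures or animals, so error terms measure the spread between these libraries, which may be technical.

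Depth was even, at 16433117 to 18087250 counts a library and 20980 to 21933 detected genes. Levels are given as CPM, counts scaled to library size with TMM factors, and levels of different genes are compared only by the deposited FPKM, which also divides by gene length. All 8 epithelial markers were detected, with a summed level of 2955 and 2993 FPKM in vehicle and 3903 and 3570 FPKM in SGC-CBP30 libraries. They did not move together. At an edgeR adjusted p under 0.05, Krt8, Krt18 and Krt19 were higher with SGC-CBP30 (log2 fold change 0.49, 0.59 and 0.29). Cdx1 and Cdx2 were lower (-0.46 and -0.21) and the other 3 did not pass, where 30.0% of all tested genes were called. Defining markers of other tissues were near 0: 10 fibroblast and smooth muscle markers summed to between 0.170 and 0.473 FPKM with Lum at 0, 10 leukocyte markers to between 1.62 and 2.38 FPKM with Cd3g at 0, and 8 endothelial markers to between 0.331 and 0.423 FPKM with Cldn5 at 0.

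Promoter sequences are shown for the PAPS synthase pair, which differed in opposite directions, and for Sult1b1 and Sult1d1, which lie next to each other on chromosome 5 and differed in unequal measure. RefSeq (GRCm38.p6) gave 11 promoters for 7 of the 8 members, each 300 bases from 250 before to 50 after a start site. They are printed 5' to 3' on the gene's strand, in lower case, with capitals for any match to a searched motif.
Papss1, chr3:131564518-131564817, plus strand: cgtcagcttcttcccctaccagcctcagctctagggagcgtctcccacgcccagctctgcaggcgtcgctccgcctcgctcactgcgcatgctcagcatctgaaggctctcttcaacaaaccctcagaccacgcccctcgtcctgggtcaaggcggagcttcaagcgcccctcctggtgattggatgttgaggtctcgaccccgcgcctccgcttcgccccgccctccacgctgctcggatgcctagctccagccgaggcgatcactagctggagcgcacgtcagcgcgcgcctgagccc
Papss2, chr19:32619755-32620054, plus strand: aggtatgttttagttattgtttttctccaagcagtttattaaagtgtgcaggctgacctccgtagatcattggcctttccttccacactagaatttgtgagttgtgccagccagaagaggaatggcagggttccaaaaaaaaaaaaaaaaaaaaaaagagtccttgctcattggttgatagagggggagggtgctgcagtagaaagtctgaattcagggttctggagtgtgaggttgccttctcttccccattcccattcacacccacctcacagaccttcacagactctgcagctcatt
Sult1d1, chr5:87568957-87569256, minus strand: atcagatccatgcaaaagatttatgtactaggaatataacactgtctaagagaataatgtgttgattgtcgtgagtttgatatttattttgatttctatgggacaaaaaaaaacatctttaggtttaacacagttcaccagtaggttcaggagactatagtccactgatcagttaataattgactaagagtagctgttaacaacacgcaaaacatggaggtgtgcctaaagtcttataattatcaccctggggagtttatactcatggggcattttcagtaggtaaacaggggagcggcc
Sult1b1, chr5:87538146-87538445, minus strand: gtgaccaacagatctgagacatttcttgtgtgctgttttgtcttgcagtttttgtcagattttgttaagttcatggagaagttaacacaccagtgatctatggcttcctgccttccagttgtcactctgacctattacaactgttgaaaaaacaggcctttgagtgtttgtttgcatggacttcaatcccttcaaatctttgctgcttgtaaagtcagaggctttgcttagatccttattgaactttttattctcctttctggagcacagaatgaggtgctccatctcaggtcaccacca
Sult1b1, inner start, chr5:87536173-87536472, minus strand: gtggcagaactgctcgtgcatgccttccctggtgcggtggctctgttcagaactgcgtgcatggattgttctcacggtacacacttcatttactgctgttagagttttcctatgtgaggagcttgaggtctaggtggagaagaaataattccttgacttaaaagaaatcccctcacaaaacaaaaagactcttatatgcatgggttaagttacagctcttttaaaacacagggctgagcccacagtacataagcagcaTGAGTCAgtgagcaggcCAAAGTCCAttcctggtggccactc

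The Papss1 window had 66.3% G and C and 27 CG dinucleotides, against medians of 52.7% and 7 over 32851 RefSeq promoters. The Papss2 window printed here, whose start site equals the gene start in the deposited table, had 44.3% and 1. A further Papss2 start in RefSeq lies 24290 bases upstream, outside the gene span in the table, and its window had 66.3% and 27. Sult1b1 had 41.3% and 0 at its outer start and 46.7% and 4 at its inner start, and Sult1d1 had 37.0% and 3.

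Both strands of each window were searched for 7 motifs. These were TTTATNG for the intestinal factor CDX, CAAAGTCCA for the nuclear receptor HNF4, AGATAA for GATA factors, TGANTCA for AP-1, TGACGTCA for the cyclic AMP response factor, TGACNNNGC for the antioxidant response, and a palindromic HNF1 motif. No printed window other than the inner Sult1b1 start held a match. That window held the AP-1 letters TGAGTCA and, without overlap, the HNF4 letters CAAAGTCCA, both after the start site. The AP-1 motif occurs in 7.81% of all promoters and the HNF4 motif in 0.475%. Of the 6 windows not printed, the inner Papss1 start held 2 GATA matches, the upstream Papss2 start 1 GATA match and a Sult2b1 start 1 AP-1 match, and the GATA motif occurs in 11.2% of all promoters. A match is a run of letters and does not show binding.

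Of the PAPS synthases, Papss2 had the widest difference between groups of all members, while Papss1 differed by far less and in the opposite direction. Papss2 (ENSMUSG00000024899, GRCm38 chromosome 19, 32620005 to 32667187, plus strand), the isoform whose loss impairs cartilage sulfation, had 2423 and 2388 CPM in the vehicle libraries and 422 and 464 CPM in the SGC-CBP30 libraries. Both vehicle libraries stood far above both SGC-CBP30 libraries, and the replicates of each group lay close together. The means were 2406 ± 24.7 and 443 ± 29.9 CPM (SD, n = 2), a 5.43-fold lower level with SGC-CBP30, or -2.44 ± 0.06 (SE of the fit) as log2 fold change. By this value Papss2 stood at place 104 from the bottom of 14684 tested genes, and by its vehicle level of 659 FPKM at place 54 from the top.

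Papss1 (ENSMUSG00000028032, chromosome 3, 131564768 to 131643671, plus strand) encodes the other PAPS synthase, with the same ATP sulfurylase and APS kinase activities. It had 74.7 and 67.7 CPM with vehicle and 83.2 and 83.3 CPM with SGC-CBP30. The SGC-CBP30 libraries were the higher ones and the groups did not overlap, and the log2 fold change came to 0.22 ± 0.08 (SE). The gene was past the threshold of the fit over all genes, an edgeR adjusted p under 0.05, but not in DESeq2 or without vehicle replicate 1 or 2, when its log2 fold change was 0.23, 0.30 and 0.16.

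Per gene length, Papss2 was 27.2 and 29.6 times Papss1 in the vehicle libraries and 4.26 and 4.68 times in the SGC-CBP30 libraries. Its share of the FPKM of the pair went from 96.6% ± 0.196 to 81.7% ± 0.998 (SD, n = 2). The summed FPKM of both genes was 686 and 678 with vehicle and 143 and 154 with SGC-CBP30. Papss2 thus remained the more abundant transcript of the pair in all 4 libraries.

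**Figure D1:**
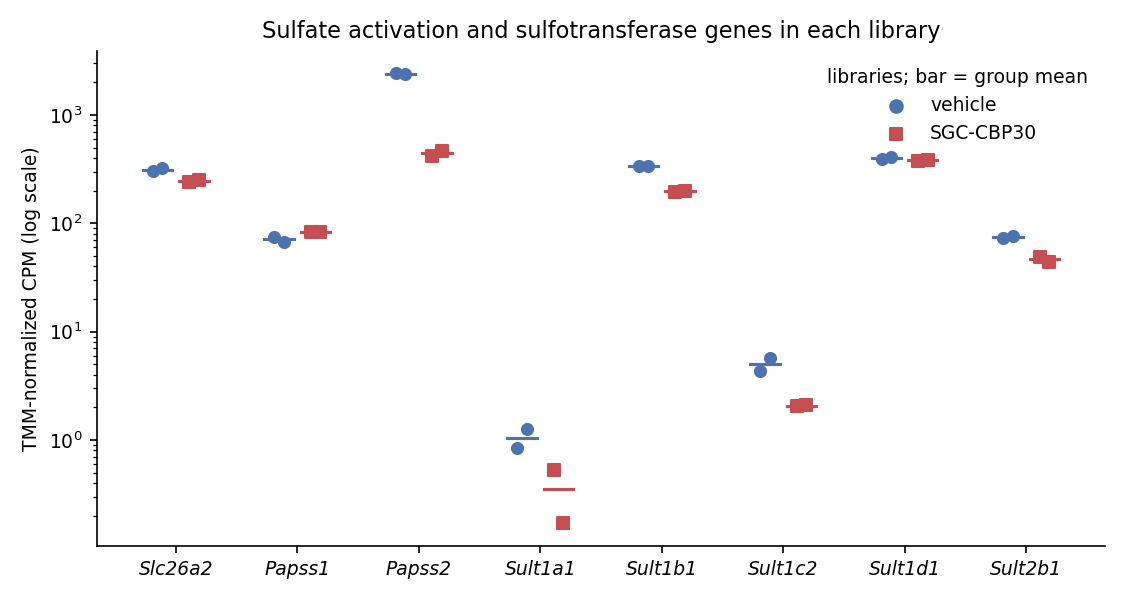
TMM-normalized CPM on a log axis for the 8 genes in each of the 4 libraries, with circles for vehicle, squares for SGC-CBP30 and bars for group means. Papss2 drops from above 2388 to below 464 CPM, Papss1 lies slightly higher with SGC-CBP30, and Sult1d1 has the smallest log2 fold change in size, -0.08.

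Slc26a2 (ENSMUSG00000034320, chromosome 18, 61192919 to 61211612, minus strand) encodes the sulfate and chloride exchanger mutated in diastrophic dysplasia, which supplies sulfate to the synthases. It had 301 and 323 CPM with vehicle and 240 and 250 CPM with SGC-CBP30. The vehicle libraries were the higher ones without overlap. The log2 fold change was -0.35 ± 0.06 (SE), or 1.27-fold lower.

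Of the 5 sulfotransferases, Sult1d1 and Sult1b1 held 92.8% ± 0.314 of the summed FPKM in vehicle and 94.5% ± 0.474 in SGC-CBP30 libraries (SD, n = 2). Sult1d1 (ENSMUSG00000029273, chromosome 5, 87554645 to 87569027, minus strand), which acts on catecholamines and other phenols in mice, had 395 and 408 CPM with vehicle and 376 and 386 CPM with SGC-CBP30. The groups did not overlap, but the gap between them, 9.21 CPM, was smaller than the 12.8 CPM between the vehicle replicates. Its log2 fold change was -0.08 ± 0.06 (SE), and -0.0024 with library totals as the scale.

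Sult1b1 (ENSMUSG00000029269, chromosome 5, 87513339 to 87538195, minus strand), a sulfotransferase of phenols and thyroid hormones, had 337 and 334 CPM with vehicle and 196 and 197 CPM with SGC-CBP30. Replicates were nearly equal and the groups stood well apart, with a 1.71-fold lower level and a log2 fold change of -0.77 ± 0.06 (SE). The 2 genes lie on the same strand with 16449 bases between them. The ratio of Sult1d1 to Sult1b1 FPKM was 1.33 and 1.38 with vehicle and 2.17 and 2.21 with SGC-CBP30.

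Sult2b1 (ENSMUSG00000003271, chromosome 7, 45729983 to 45784669, minus strand), the cholesterol and hydroxysteroid sulfotransferase, had 72.7 and 75.6 CPM with vehicle and 49.0 and 44.1 CPM with SGC-CBP30, without overlap. Its log2 fold change was -0.67 ± 0.08 (SE). Antisense gene Gm31597 and the opposite-strand gene Lmtk3 overlap it with at most 16 and 23 counts a library, against at least 775 for Sult2b1.

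Sult1c2 and Sult1a1 were scarce. Sult1c2 (ENSMUSG00000023122, chromosome 17, 53829637 to 53846339, minus strand), a phenol sulfotransferase, had 76 and 92 counts with vehicle and 35 and 37 with SGC-CBP30, or 4.30, 5.76, 2.05 and 2.10 CPM. Its log2 fold change was -1.27 ± 0.29 (SE). Sult1a1 (ENSMUSG00000030711, chromosome 7, 126672865 to 126676432, minus strand), the main phenol sulfotransferase of liver, had 15 and 20 counts with vehicle and 9 and 3 with SGC-CBP30. Over each group that is 35 against 12 counts. Its log2 fold change was -1.57 ± 0.65 (SE), but -2.57 without SGC-CBP30 replicate 1 and -0.97 without SGC-CBP30 replicate 2. The opposite-strand gene Sgf29 overlaps its end and had 152 to 220 counts a library, and since strand use in counting is not given in the sources used here, reads of the overlap cannot be told apart.

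All 8 genes entered the fit, Sult1a1 through its vehicle libraries alone. At an adjusted p under 0.05 the fit called 5 of the 8 lower and 1 higher and did not call Sult1d1 or Sult1a1, while 30.0% of all tested genes were called, 16.3% lower and 13.6% higher. In 8 of 8 the groups did not overlap, as in 63.1% of tested genes. These counts describe genes that were chosen on the same contrast. With library totals as the scale, which moves the median gene by 0.07 on the log2 scale, 2907 genes were called higher and 1924 lower, against 2004 and 2397 with TMM.

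By deposited FPKM in vehicle the order was Papss2 (656 and 662), Sult1d1 (160 and 166), Sult1b1 (120.05 and 120.3), Slc26a2 (24.2 and 26.0), Papss1 (22.1 and 24.3), Sult2b1 (18.3 and 19.1), Sult1c2 (2.31 and 3.11) and Sult1a1 (0.559 and 0.829). Only the ranges of Slc26a2 and Papss1 overlapped. With SGC-CBP30 the highest level was that of Sult1d1 (153 and 156), followed by Papss2 (116 and 127) and Sult1b1 (70.4 and 70.6), and Papss1 (27.15 and 27.16) lay above Slc26a2 (19.3 and 20.1). In the vehicle libraries Papss2 alone had 2.20 and 2.12 times the summed FPKM of the 5 sulfotransferases, and in the SGC-CBP30 libraries 0.489 and 0.531 times.

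**Figure D2:**
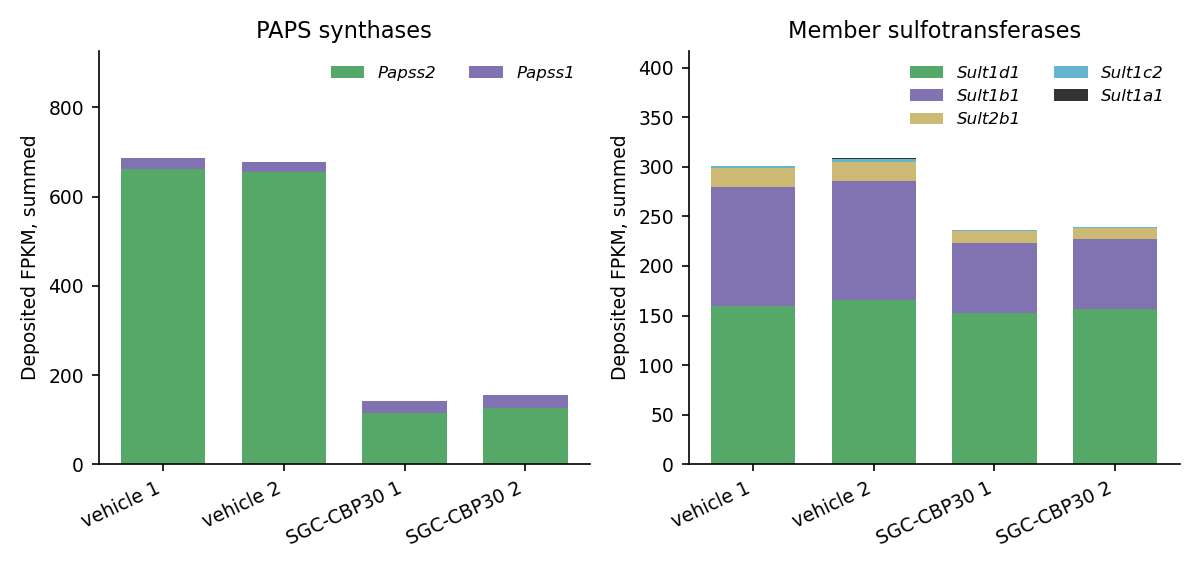
Deposited FPKM stacked by gene for the PAPS synthases (left) and the 5 sulfotransferases (right) in each library, with linear axes from 0. The synthase total falls from 686 and 678 to 143 and 154 FPKM, almost all of it Papss2, while the sulfotransferase total goes from 301 and 309 to 237 and 239 FPKM.

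The rest of the pathway was read from 7 lists, whose genes were tested in the fit over all genes. These lists, too, were chosen with earlier results of these data known, so their counts and medians are a description. In that fit 16.3% of tested genes were called lower and 13.6% higher. Transporters of sulfate other than Slc26a2 were lower where they were abundant: of 5 tested, 3 fell, 0 rose and 2 did not pass. Slc13a1, the sodium-dependent sulfate cotransporter, had 225 and 244 CPM with vehicle and 113 and 113 CPM with SGC-CBP30, and fell by 1.05 ± 0.07 (SE) on the log2 scale (edgeR adjusted p = 4.52e-12). The anion exchanger genes Slc26a3 and Slc26a6, which mainly carry chloride, bicarbonate and oxalate, fell by 0.88 ± 0.07 and 0.58 ± 0.06 (edgeR adjusted p = 1.25e-10 and 3.11e-08). The list's median log2 fold change was -0.58, against 0.01 over all tested genes.

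Enzymes that make sulfate from cysteine and sulfide were lower in 6 of 10 tested genes and higher in 0, with a median log2 fold change of -0.63. Cth, which releases cysteine from cystathionine, fell from 151 ± 0.0930 to 66.9 ± 7.38 CPM (SD, n = 2; log2 fold change -1.18 ± 0.08 SE, edgeR adjusted p = 8.67e-12). The cytosolic aspartate aminotransferase gene Got1 fell by 0.76 ± 0.07, and Ethe1, the mitochondrial persulfide dioxygenase, by 1.23 ± 0.14. The other 3 that fell, picked with their values in view, were the sulfurtransferase genes Tst (-1.47 ± 0.21) and Mpst (-0.67 ± 0.15) and the aminotransferase gene Got2 (-0.37 ± 0.07). Suox, the sulfite oxidase that makes sulfate itself, was also picked with its values in view. It had a log2 fold change of 0.07 ± 0.13 and did not pass (edgeR adjusted p = 0.734).

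Among cytosolic sulfotransferases outside the members, 12 were at 0 counts in all 4 libraries, the Sult2a and Sult3a genes among them, which allows up to 3 counts or 0.170 to 0.188 CPM a library, and only Sult6b2 was abundant enough to test. It had 364 and 373 CPM with vehicle and 246 and 232 CPM with SGC-CBP30, and fell by 0.62 ± 0.06 (SE) on the log2 scale (edgeR adjusted p = 1.10e-08). With a mean of 170 FPKM in vehicle, Sult6b2 lay just above Sult1d1 at 163 FPKM. Over all 8 cytosolic sulfotransferase genes with a count, the summed FPKM was 469 and 482 with vehicle and 351 and 347 with SGC-CBP30.

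Of 4 genes that carry PAPS or clear its product PAP, 1 fell, 1 rose and 2 did not pass, with a median of 0.08. Bpnt1, the cytosolic phosphatase that breaks down PAP, had 1077 and 1099 CPM with vehicle and 824 and 764 CPM with SGC-CBP30, and fell by 0.45 ± 0.06 (SE) on the log2 scale (edgeR adjusted p = 1.05e-06). Slc35b2, the transporter that brings PAPS into the Golgi, rose by 0.29 ± 0.09, from 46.0 ± 0.102 to 56.2 ± 4.28 CPM (SD, n = 2; edgeR adjusted p = 0.0128). DESeq2 did not make that call (adjusted p = 0.0802), nor did edgeR without vehicle replicate 1 (0.0992), vehicle replicate 2 (0.0852) or SGC-CBP30 replicate 1 (0.0836).

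Golgi sulfotransferases moved in both directions: of 16 tested genes 4 fell, 3 rose and 9 did not pass, with a median of -0.14. Chst4, which sulfates N-acetylglucosamine on mucin-type glycans, fell from 54.9 ± 1.99 to 29.0 ± 0.129 CPM (SD, n = 2), a log2 fold change of -0.92 ± 0.09 (SE; edgeR adjusted p = 2.00e-08). The galactose 3-O-sulfotransferase genes Gal3st2 and Gal3st2b fell by 0.76 ± 0.08 and 1.42 ± 0.17, although these are close copies that can share reads. A further copy, Gal3st2c, picked with its values in view, had 73 and 66 counts with vehicle and 48 and 145 with SGC-CBP30. Its log2 fold change was 0.43 ± 0.44 and it did not pass (edgeR adjusted p = 0.539). Ndst1, an enzyme of heparan sulfate, named after its values were seen, fell by 0.52 ± 0.07. The 3 that rose, picked likewise, were Tpst2 (0.49 ± 0.14), Hs3st1 (0.38 ± 0.14) and the scarce Chst14 (2.08 ± 0.62, from 6 and 4 to 27 and 17 counts). None of these 3 was called in DESeq2, in edgeR without vehicle replicate 2 or without SGC-CBP30 replicate 1.

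Sulfatases, which remove the group, were listed together with their activators and also split. Of 11 tested genes 3 fell, 3 rose and 5 did not pass, with a median of 0.23 that was 0.0150 without vehicle replicate 1 and 0.0675 without SGC-CBP30 replicate 1. Arsg, a lysosomal sulfatase of heparan sulfate, fell from 30.7 ± 0.0964 to 10.8 ± 0.0376 CPM (SD, n = 2), a log2 fold change of -1.50 ± 0.12 (SE; edgeR adjusted p = 6.58e-10). Arsa, the sulfatase of sulfatide lipids, fell by 0.95 ± 0.12, and Ids, the iduronate sulfatase, rose by 0.66 ± 0.11 (edgeR adjusted p = 7.04e-07 and 3.36e-05). Named after their values were seen, Sgsh rose by 0.81 ± 0.15 and Arsb by 0.76 ± 0.20, and Arsk fell by 0.56 ± 0.21. The Arsb call was lost in DESeq2 and without vehicle replicate 1, and that of Arsk in DESeq2, with library totals, without a filter, and with vehicle replicate 2, SGC-CBP30 replicate 1 or SGC-CBP30 replicate 2 left out.

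Of 12 transcription factor genes reported to act on sulfotransferase genes, 5 fell, 0 rose and 7 did not pass, with a median of -0.05. Nfe2l2, the antioxidant response factor, fell from 539 ± 15.1 to 331 ± 2.82 CPM (SD, n = 2), a log2 fold change of -0.70 ± 0.06 (SE; edgeR adjusted p = 6.36e-10). The vitamin D receptor gene Vdr fell by 0.45 ± 0.06 and the constitutive androstane receptor gene Nr1i3 by 0.91 ± 0.13. The other 2 that fell, picked with their values in view, were the bile acid receptor gene Nr1h4 (-0.40 ± 0.09) and Ppara (-0.21 ± 0.08), the latter not called in DESeq2, with library totals, without a filter, or with either vehicle library or SGC-CBP30 replicate 1 left out. Hnf4a, picked with its values in view, was at 0.14 ± 0.06 and did not pass (edgeR adjusted p = 0.0708), but passed with library totals (0.21, adjusted p = 0.00434) and without SGC-CBP30 replicate 1 or 2.

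**Figure D3:**
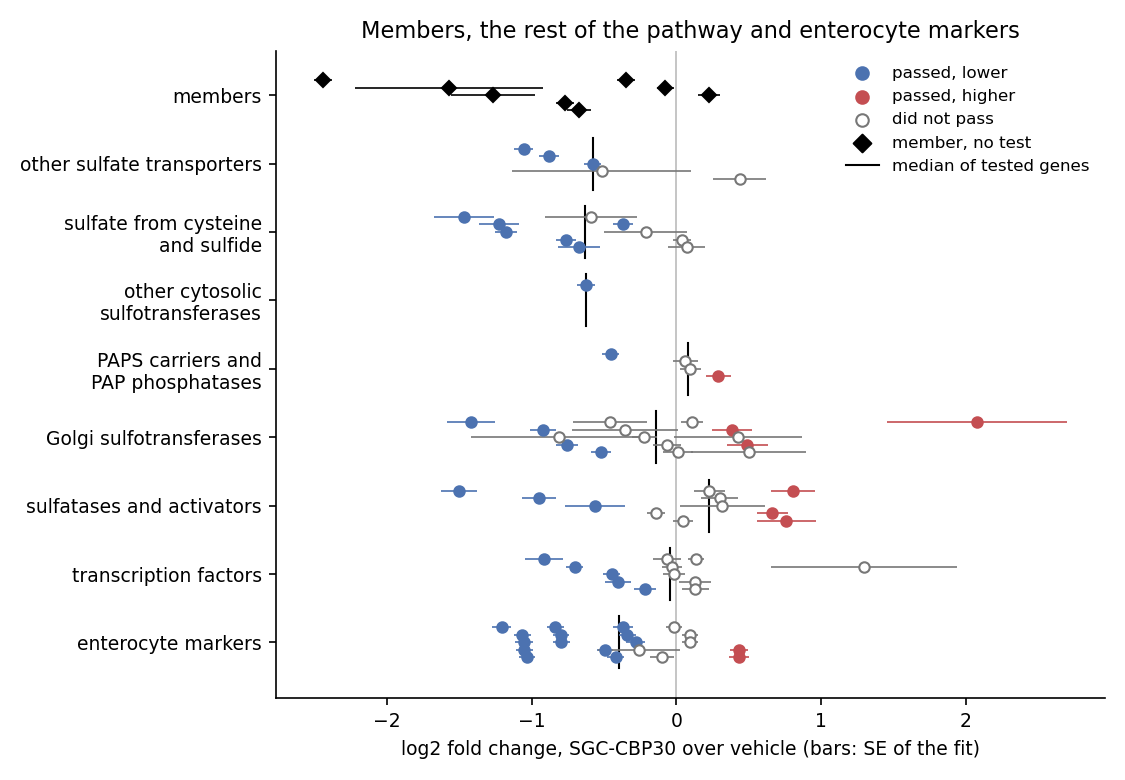
Log2 fold changes of SGC-CBP30 over vehicle, with the SE of the fit as bars, for the members (black diamonds, no test), the tested genes of the 7 pathway lists and enterocyte markers, coloured by whether they passed the threshold, with a line at each list's median. Papss2 at -2.44 lies left of every other gene drawn.

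Markers of absorptive cells differed between the groups as well. Of 20 enterocyte markers 13 fell, 2 rose and 5 did not pass, with a median log2 fold change of -0.39, none was at 0, and their summed level was 20869 and 21064 FPKM with vehicle and 19742 and 17103 FPKM with SGC-CBP30. In bulk RNA, fewer cells of a type and less RNA per cell cannot be told apart, and the part of enterocyte number in the members' values was not tested. None of the 20 markers had as low a log2 fold change as Papss2, the lowest marker being at -1.21. The scarce Sult1a1 (-1.57 ± 0.65 SE) and Sult1c2 (-1.27 ± 0.29 SE) also lay below every marker in the main fit, but this place was not stable. With each library left out in turn, Sult1a1 ran from -2.57 to -0.97 and Sult1c2 from -1.47 to -1.04. Sult1a1 entered the fit through its vehicle libraries alone, so the filter favours a low value. By contrast, 8 of 20 markers lay below Sult1b1 and 8 below Sult2b1, 11 below Slc26a2, 15 below Sult1d1 and 18 below Papss1. Goblet cell markers summed to 2435 and 2408 FPKM with vehicle and 2535 and 2373 FPKM with SGC-CBP30, and of 9 tested 1 rose and 2 fell. Paneth cell markers summed to 5873 and 5872 FPKM with vehicle and 5582 and 4784 FPKM with SGC-CBP30, with 3 of 10 lower and 0 higher. Stem cell markers summed to 169 and 161 FPKM with vehicle and 115 and 128 FPKM with SGC-CBP30. Of 10, 2 were lower and 2 higher, with a median log2 fold change of 0.08. Named after their values were seen, the lower ones were Olfm4 (-1.79) and Ascl2 (-0.98) and the higher ones Lgr5 (0.56) and Rnf43 (0.36). Olfm4 alone went from a mean of 64.3 FPKM with vehicle to 18.6 FPKM with SGC-CBP30. Tuft cell markers summed to 16.0 and 16.1 FPKM with vehicle and 12.0 and 12.6 FPKM with SGC-CBP30, and of 8 tested 2 fell and 0 rose. Enteroendocrine markers overlapped between the groups, at 429 and 396 FPKM with vehicle and 425 and 362 FPKM with SGC-CBP30, with 3 of 10 lower and 1 higher. For comparison, 30.0% of all tested genes were called, 16.3% lower and 13.6% higher. No marker of these 5 lists was at 0 in all 4 libraries, and the part of these cell types in the members' values was not tested.

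Neighbouring genes on the chromosome, looked up after the data were seen, gave a reading that the choice of members did not use. The nearest tested protein-coding genes on either side of the 8 members, with members themselves left out, numbered 14. Of these, 2 fell (Sgms2 and Ppargc1b), 2 rose (Hmgxb3 and Fam83e) and 10 did not pass, against 30.0% called over all tested genes. Sult1b1 and Sult1d1 thus shared Ugt2b38 and Utp3. Some genes lay far off: Pot1b was 1805611 bases from Sult1c2, Utp3 1016266 bases from Sult1b1 and Gimd1 986148 bases from Papss1. Papss2 lies between Minpp1 and Atad1, which were at 94.5 ± 2.15 and 93.2 ± 0.800 CPM with vehicle and 87.6 ± 3.40 and 97.1 ± 0.406 CPM with SGC-CBP30 (SD, n = 2). Neither passed (edgeR adjusted p = 0.290 and 0.595), with log2 fold changes of -0.11 ± 0.07 and 0.06 ± 0.07, although the 3' end of Atad1, on the opposite strand, lies only 5375 bases from that of Papss2. Beside Sult2b1, which was lower, Fam83e, 490 bases away, rose by 0.35 ± 0.07 (edgeR adjusted p = 8.27e-04), but it missed the threshold once vehicle replicate 1 was left out (adjusted p = 0.0564). Sgms2, beside Papss1, fell by 0.37 ± 0.07. On the sides of Slc26a2, Ppargc1b fell by 0.39 ± 0.11 and Hmgxb3 rose by 0.30 ± 0.10, both uncalled in DESeq2 and without vehicle replicate 1, and Hmgxb3 also without SGC-CBP30 replicate 1.

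The genes whose log2 CPM over the 4 libraries, centred on the gene's mean, ran closest to Papss2 were Plekho2, Csf2 and Pck1, at Euclidean distances of 0.0699, 0.126 and 0.136. With close replicates in each group, this distance mostly ranks genes by a like difference between the groups. The log2 fold change was -2.42 for Plekho2, -3.07 for Csf2 and -2.34 for Pck1, and shared regulation was not tested. Plekho2 had 232 and 207 counts with vehicle and 39 and 45 with SGC-CBP30. Pck1, the cytosolic enzyme that commits oxaloacetate to gluconeogenesis, had 297 and 266 counts with vehicle and 53 and 61 with SGC-CBP30. The cytokine gene Csf2 had only 27 and 24 counts with vehicle and 3 and 3 with SGC-CBP30, so that the prior count of 2 in the log2 CPM draws it toward Papss2.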

How the data were processed

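RNA sequencing of 4 organoid libraries, 2 per group, was analysed from 1 deposited table. Tools named in the submitters' processing notes, with no roles, are HISAT2 2.0.5, featureCounts 1.5.0-p3 and StringTie 1.3.3b, and the build named is mm9. Gene coordinates in the table are those of GRCm38: of 51486 gene identifiers shared with GENCODE M21, 98.5% had identical spans. Per the file headers, the authors deposited whole-number counts per gene, which are not normalized, and FPKM, the count per kilobase of gene and per scaled library total. The authors' group means (a signal on the scale of normalized counts), log2 fold change, p-value and adjusted p-value are also deposited, and were not used here. The last line of the table is incomplete and was left out. Whether counting used strand, and how it treated reads with several matches, is not given in the sources used here.

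Counts were fitted with edgeR 4.0.16 in R 4.3.3 (filterByExpr by group, TMM, robust dispersions, quasi-likelihood F test between the groups, Benjamini-Hochberg adjustment over 14684 genes, threshold 0.05). SE values are the absolute log2 fold change over the root of F. TMM factors ran from 0.972 to 1.03, and 3 counts equal 0.170 to 0.188 CPM in a library. On 1 set of simulated data the fit recovered most changed genes, with more false calls than the nominal rate. Alternatives were DESeq2 1.42.0, library totals as the scale, no filter, at least 50 counts in 2 libraries, a replicate block, and leaving out each library. An exact permutation test of 2 against 2 libraries cannot go below p = 0.333 and was not used. The members and lists were chosen with earlier results of these data known. Genes were named by a rule: all members, up to 3 called genes of smallest p in each list, and the 3 genes closest to the member of highest vehicle CPM. Protein sequences were not used here, and 1 marker gene is not reported here. No batch is given in the labels.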

Additional observations from a re-analysis of the deposited data

How the results depend on the processing

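Papss2, Slc26a2, Sult1b1, Sult1c2, Sult1d1 and Sult2b1 kept their direction and side of the threshold under all 9 alternatives, and Sult1a1 under the 8 that could test it; requiring 50 counts in 2 libraries gave Sult1a1 no value. Papss1 kept its direction in all 9 and its call in 6. All alternatives refit the same libraries, and the members were chosen with this contrast known. A kept call therefore describes the processing and is no test of a member. With library totals the log2 fold change was -0.70 for Sult1b1 and -0.0024 for Sult1d1. For Sult1b1, it was -0.76 without a filter and -0.79 with at least 50 counts in 2 libraries. The median gene moved by like amounts, 0.0729, 0.0126 and -0.0148 in that order of settings. When each library was left out in turn, the log2 fold change of Sult1a1 ran from -2.57 to -0.97. Over the whole table DESeq2 called 2722 genes, 1070 of them higher, against 4401 and 2004; leaving out 1 library gave 1235 to 2104 genes higher, with 1236 and 1235 without vehicle replicates 1 and 2. Library totals raised the genes called higher to 1 among other sulfate transporters, 5 among sulfatases and their activators and 1 among transcription factors. DESeq2 lowered those to 0 among PAPS carriers and PAP phosphatases and 0 among Golgi sulfotransferases. When each library was left out in turn, the genes called higher were 0 to 1 among PAPS carriers and PAP phosphatases, 0 to 3 among Golgi sulfotransferases and 0 to 1 among transcription factors; fewer libraries were then fitted. List medians then ran from -0.217 to -0.0513 for Golgi sulfotransferases and 0.0150 to 0.262 for sulfatases and their activators. They ran from 0.0556 to 0.110 for PAPS carriers and PAP phosphatases and -0.115 to -0.0016 for transcription factors. The median of the transcription factors was 0.03 with library totals. Replicate numbers are shared by the groups but not said to pair libraries: differences between replicates 1 and 2 in vehicle and in SGC-CBP30 correlated at -0.0091 across genes. With a replicate block 4703 genes were called in place of 4401, and no member's call changed. With 2 libraries a group, genes as scarce as Sult1a1 are limited by depth.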
